A study of Bos taurus with 30 samples.

Results

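The miR-200 family, bta-miR-200a, bta-miR-200b, bta-miR-200c, bta-miR-141 and bta-miR-429 (below without the prefix for cow), was followed by name in small RNA sequencing of bull calf testes. All 5 were found among the 1030 bovine miRNAs of the deposited table, each as 1 entry without an arm. The study compared testes of 15 bull calves fed at a High plane of nutrition with those of 15 at a Moderate plane, all Holstein-Friesian, with 1 library per calf, and its title states an interest in the effect of early-life feeding on testis miRNAs. The daily ration of High calves was 10 L of milk replacer (1.5 kg) and unrestricted concentrate, set to reach a growth of 1.0 kg a day. That of Moderate calves was 4 L of milk replacer (0.5 kg) and 0.5 kg of concentrate, set to reach 0.5 kg a day. Diets ran from 2 to 12 weeks of age, when the testes were collected, and the labels name no other treatment. Diet was read from the diet characteristic of each label. For 18 libraries (9 per diet) the sample title names the opposite diet, so every statement on diet depends on that characteristic.

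The miR-200 family is known for keeping cells epithelial. In mammals its members pair with the mRNAs of ZEB1 and ZEB2, transcription factors that repress E-cadherin, and ZEB factors in turn repress the genes of the family. miR-200b, miR-200c and miR-429 share a seed, the stretch near the 5′ end that selects targets, while miR-200a and miR-141 carry another seed that differs from it by a base. In mice, loss of miR-200b and miR-429 impairs ovulation through the pituitary. In the RefSeq gene table of the cow assembly ARS-UCD2.0 the genes form 2 clusters on different chromosomes. MIR429, MIR200A and MIR200B lie in that order between the protein-coding genes TTLL10 and C16H1orf159, with no protein-coding gene between them. MIR141 and MIR200C lie between PHB2 and PTPN6, overlapping an annotated long noncoding RNA. No coordinates are printed, because the build behind the deposited table is unknown here.

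Values below are the deposited ones, taken to be TMM-scaled CPM, that is, CPM on a library size normalized by the trimmed mean of M values. The reads behind them were recovered from the steps in the values, and all 5 members came out as whole reads in all 30 libraries. Depth ranged from 6.0003 to 19.98 megareads (M reads), with 24 libraries at up to 10.3 M reads (11 High, 13 Moderate) and 6 at 16.7 M reads or more (4 High, 2 Moderate). Moderate replicate 5 stood apart: 84.8% of its reads were miR-10b, against 37.0% to 49.0% in the other 29 libraries, and 476 miRNAs were above 0 in it, against 579 to 682. Several results are also given without it. A count of 3 reads, the upper limit that a count of 0 allows, corresponds to 0.138 to 1.43 units depending on the library, for counting error only. The higher bound is that of Moderate replicate 5.

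The family was present in every library at a low level. Its 5 members together had 44 to 367 reads per library, a median of 0.00154% of the reads, and 4894 reads over all libraries. miR-141 was the most abundant, at 7.98 ± 1.85 (SD, n = 30 libraries), ranking 246th by mean value among the 838 miRNAs above 0 in at least 1 library. miR-200a followed at 4.34 ± 1.69, in 285th place. miR-429, at 1.52 ± 0.80, and miR-200b, at 1.42 ± 0.71, stood side by side in 358th and 366th place. miR-200c was the lowest at 0.777 ± 0.334, in 411th place. The most abundant and the least abundant member thus came from the same cluster. Levels of different miRNAs also carry the ligation preferences of the library kit, which these files do not measure.

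Differences between neighbours in this order were tested within libraries, on the mean difference of log2(value + 0.5). A two-sided sign-flip permutation test was used, with 100000 resamples and Benjamini-Hochberg adjustment over the 4 neighbouring pairs. The pairs were set by the means of these same libraries. The p-values therefore describe how steady each difference was from library to library, and give no independent support for the order. miR-141 exceeded miR-200a by 0.85 on the log2 scale (standard error 0.10), was higher in 27 of 30 libraries and level in 1 (permutation p = 1e-05, the smallest these resamples can give; adjusted p = 2e-05). miR-200a exceeded miR-429 by 1.29 (standard error 0.05) in 30 of 30 libraries, with the same p-values. miR-429 and miR-200b did not differ beyond their spread, with a mean difference of 0.07 (standard error 0.07) and miR-429 higher in 15 libraries and level in 5 (permutation p = 0.350, n = 30). miR-200b exceeded miR-200c by 0.54 (standard error 0.14) in 24 of 30 libraries (permutation p = 0.00037; adjusted p = 0.000493).

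**Figure D1:**
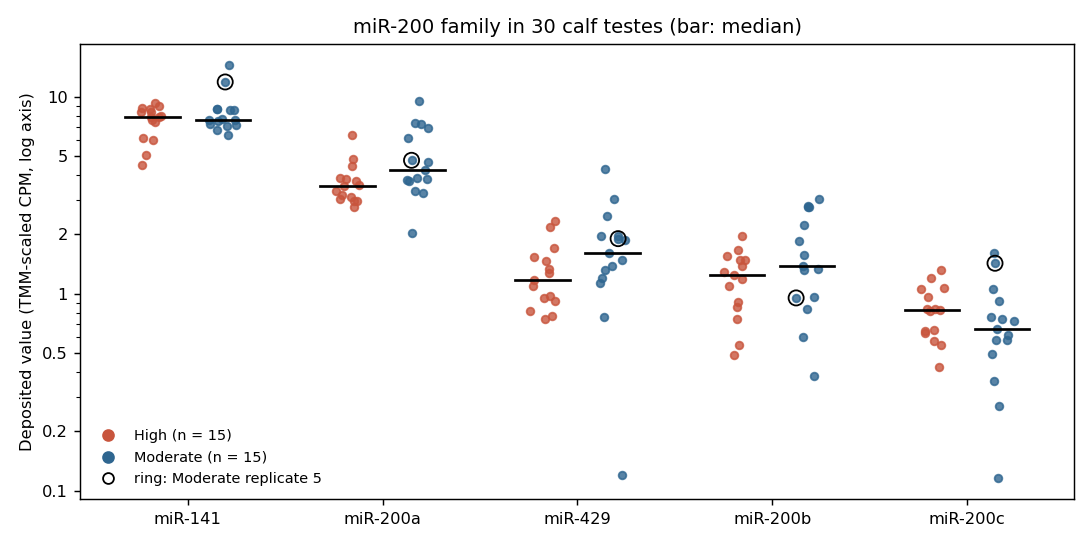
Deposited values (TMM-scaled CPM, log axis) of the 5 miR-200 family members, 1 point per library, with High calves left of Moderate calves, a bar at each median and a ring around Moderate replicate 5. miR-141 lies highest and miR-200c lowest, and the points of the diets overlap for every member.

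Summed per cluster, miR-200c and miR-141 reached 8.76 ± 2.05 and miR-200a, miR-200b and miR-429 reached 7.28 ± 2.94 (n = 30). The cluster of miR-200c and miR-141 was the higher one in 21 of the 30 libraries, 12 of 15 High and 9 of 15 Moderate, and level in Moderate replicate 1. The log2 ratio of the miR-200a cluster to the miR-141 cluster ran from -1.52 in the lowest library, Moderate replicate 3, to 1.01 in the highest, with a median of -0.36. Its mean was -0.45 ± 0.51 in High and -0.21 ± 0.72 in Moderate libraries. The cluster sums moved with different libraries. The miR-200a cluster peaked at 16.6 in Moderate replicate 6, and the miR-141 cluster at 16.2 in Moderate replicate 9. Grouped by seed instead, miR-200a and miR-141 held 77.2% ± 5.39 of the family signal, with 77.3% ± 4.84 in High and 77.0% ± 6.06 in Moderate libraries. No test was run on sums or ratios, because they combine members chosen with earlier results known.

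The members of the miR-200a cluster varied together from calf to calf, while no relation between members of different clusters passed. miR-200a and miR-429 had a Spearman rho of 0.75 and a Pearson r of 0.84 on log2(value + 0.5) over the 30 libraries (permutation p = 2e-05 for rho and 1e-05 for r, the smallest 100000 resamples can give; adjusted p = 1e-04 for both over the 10 pairs of the family). miR-200b and miR-429 had a rho of 0.79 and an r of 0.73 (permutation p = 2e-05 and adjusted p = 1e-04 for both). miR-200a and miR-200b had a rho of 0.55 and an r of 0.56 (permutation p = 0.00225 and 0.00133; adjusted p = 0.00750 and 0.00443). Without the libraries farthest from the median of the first-named member, Pearson r was 0.76, 0.69 and 0.40 for these 3 pairs in that order. Moderate replicates 6 and 7 were left out where miR-200a came first, and Moderate replicates 7 and 11 where miR-200b did.

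All 3 relations had the same sign within each diet and within each range of depth. For miR-200a and miR-429, r was 0.65 in the 15 High and 0.89 in the 15 Moderate libraries, and 0.84 in the 24 shallower and 0.91 in the 6 deeper ones. For miR-200b and miR-429 it was 0.74 in High and 0.70 in Moderate libraries, and for miR-200a and miR-200b 0.43 and 0.54. Over all 74691 pairs of the 387 tested miRNAs the median rho was 0.01, and the 95th percentile was 0.41. The 3 pairs of the miR-200a cluster lay above 99.8%, 99.9% and 98.5% of these pairs. Values of a library share its scaling, and low read counts add independent noise to each member.

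miR-200c and miR-141, the members of the other cluster, had a rho of 0.32 (permutation p = 0.0840; adjusted p = 0.169) and an r of 0.41 (permutation p = 0.0249; adjusted p = 0.0622), which did not pass. Without Moderate replicates 8 and 9, the farthest from the median of miR-200c, r was 0.28, and without Moderate replicate 5 it was 0.33. Scaled by library totals alone, the rho of this pair was 0.46 and passed (adjusted permutation p = 0.0251). Of the 6 pairs across the clusters none passed, with rho from -0.31 for miR-200a and miR-200c (permutation p = 0.10; adjusted p = 0.169) to 0.04 for miR-200a and miR-141 (permutation p = 0.824; adjusted p = 0.915). miR-200c had a median of 7 reads per library and a spread close to that of counting, which limits what its pairs could show. The difference between correlations within and across clusters was not itself tested.

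**Figure D2:**
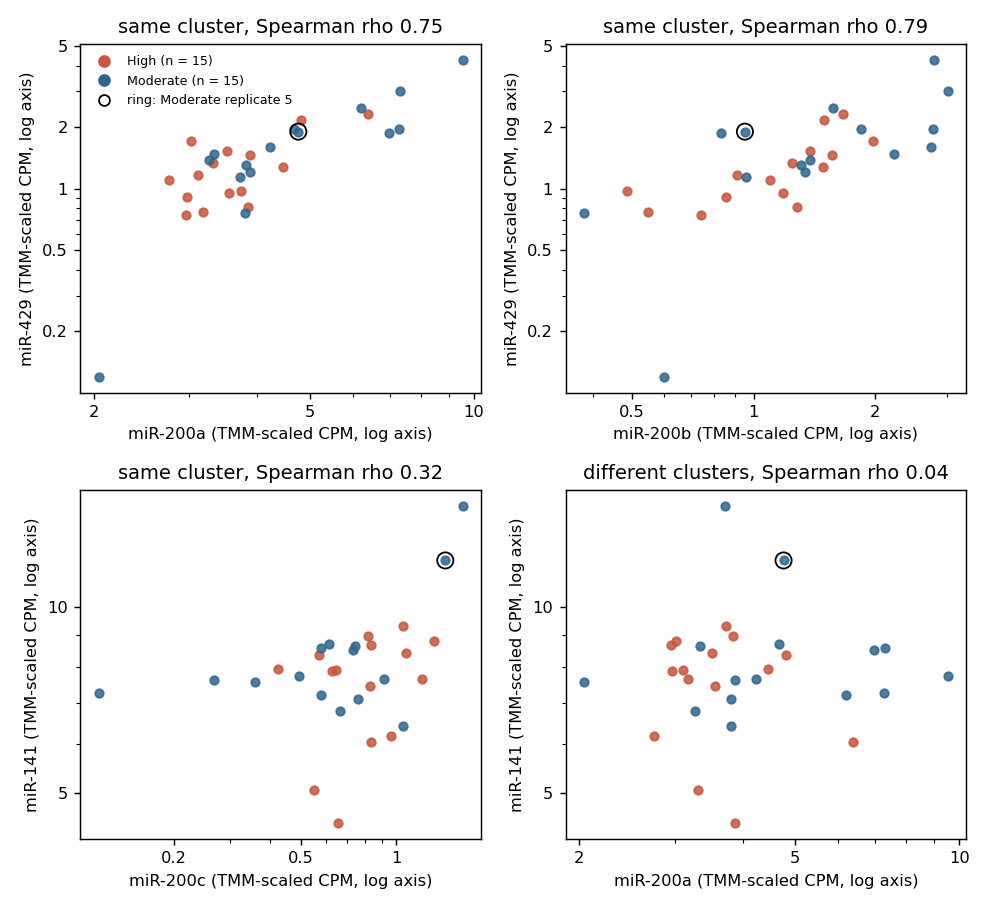
Deposited values (TMM-scaled CPM, both axes log) of 4 pairs of family members, 1 point per library, coloured by diet, with a ring around Moderate replicate 5. Points rise along a diagonal for miR-429 against miR-200a (rho 0.75) and against miR-200b (rho 0.79), less so for miR-141 against miR-200c (rho 0.32), and show no trend for miR-141 against miR-200a (rho 0.04).

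The spread over libraries differed between members. The SD of log2(value + 0.5) was 0.55 for miR-429, 0.53 for miR-200b and 0.44 for miR-200a, which ranked 38th, 47th and 91st among the 387 tested miRNAs, whose median SD was 0.34. These ranks are not adjusted for level, and counting error adds more to the SD of miRNAs this low. By the chi-square of the reads against counting, a measure that rises with level, they ranked 272nd, 283rd and 229th. miR-141 varied less, with an SD of 0.30 and rank 242. These spreads were set beside that of counting. The coefficient of variation of miR-200a was 38.8%, against 16.7% from counting error alone, and for miR-429 it was 52.4% against 28.5%. For miR-200b it was 50.1% against 28.8% and for miR-141 23.1% against 12.5%. For miR-200c it was 43.1% against 40.5%, so that its spread was close to that of counting. miR-200c had 3 reads or fewer in 5 libraries, miR-200b in 2 and miR-429 in 1.

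**Figure D3:**
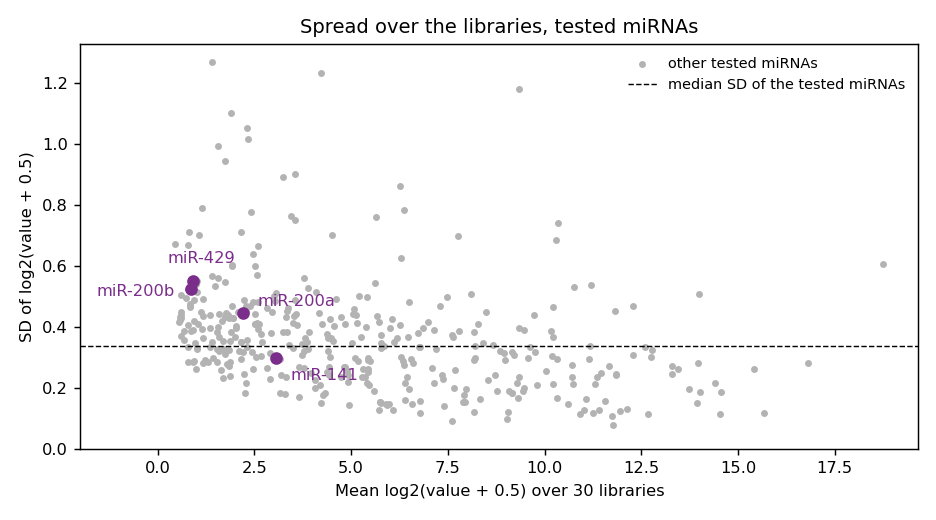
SD of log2(value + 0.5) over 30 libraries against the mean log2(value + 0.5), 1 point per tested miRNA, with family members in purple and the median SD of 0.34 as a dashed line. miR-429, miR-200b and miR-200a lie above the line and miR-141 below it, and miR-200c is not shown because it was under the filter.

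Whether the family differed with diet was asked in limma over all 387 miRNAs whose value reached 1 in 15 libraries or more. miR-200a, miR-200b, miR-429 and miR-141 passed this filter. miR-200a and miR-141 did so in all 30 libraries, miR-200b in 20 (10 High, 10 Moderate) and miR-429 in 22 (9 High, 13 Moderate). miR-200c reached a value of 1 in 7 libraries and was fitted only without the filter, over 838 miRNAs. None of the 4 tested members passed an adjusted p of 0.05, against 19 of 387 tested miRNAs (4.91%) that did, 9 higher (2.33%) and 10 lower (2.58%) in High testes. On the recovered reads edgeR called 30 of 377 (7.96%; 2.39% higher, 5.57% lower). DESeq2 called 47 of the 838 miRNAs above 0 in at least 1 library (5.61%; 2.27% higher, 3.34% lower). Not all of these 838 entered its adjustment, so its shares of the miRNAs adjusted were larger than these. Without Moderate replicate 5 limma called 45 of 385 (11.7%; 4.94% higher, 6.75% lower). No family member was among these calls. Fold changes are High minus Moderate on the log2(value + 0.5) scale, which understates the changes of miRNAs this low.

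miR-200a, of the seed shared with miR-141, ran from 2.75 through a median of 3.52 to 6.38 in High testes, and from 2.04 through 4.23 to 9.53 in Moderate testes. The ranges overlapped, 12 of 15 High values fell under the Moderate median, and Moderate replicates 4, 6, 7 and 8 lay above the highest High library. The log2 fold change was -0.33 (standard error 0.15, 95% confidence interval -0.63 to -0.02, unadjusted p = 0.0369, adjusted p = 0.189 in limma). On the recovered reads it was -0.43 in edgeR (adjusted p = 0.0964) and -0.42 in DESeq2 (adjusted p = 0.106). Without Moderate replicate 5 it was -0.33 with an adjusted p of 0.153.

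miR-429, of the miR-200b seed, ran from 0.739 through a median of 1.17 to 2.33 in High testes, and from 0.120 through 1.60 to 4.27 in Moderate testes. Its lowest value, in Moderate replicate 3, rested on 1 read. Moderate replicates 6, 7 and 15 lay above the highest High library, and 12 of 15 High values fell under the Moderate median. The log2 fold change was -0.26 (standard error 0.19, 95% confidence interval -0.65 to 0.13, adjusted p = 0.445 in limma). It was -0.24 without Moderate replicate 5 (adjusted p = 0.456 in limma).

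miR-200b ran from 0.486 through a median of 1.24 to 1.97 in High testes, and from 0.380 through 1.38 to 3.02 in Moderate testes. Moderate replicates 1, 6, 7, 8 and 13 lay above the highest High library, and 10 of 15 High values fell under the Moderate median. The log2 fold change was -0.27 (standard error 0.18, 95% confidence interval -0.64 to 0.10, adjusted p = 0.415 in limma). It was -0.30 without Moderate replicate 5 (adjusted p = 0.301 in limma). Moderate replicates 6 and 7 were thus above all High libraries for each member of the miR-200a cluster.

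miR-141 ran from 4.48 through a median of 7.91 to 9.31 in High testes, and from 6.43 through 7.66 to 14.6 in Moderate testes. The medians stood in the opposite order to the means, which were 7.54 ± 1.45 in High and 8.42 ± 2.13 in Moderate testes (n = 15 each). The log2 fold change was -0.14 (standard error 0.11, 95% confidence interval -0.36 to 0.08, adjusted p = 0.458 in limma). With log10 depth as a covariate it was -0.13 (adjusted p = 0.521 in limma). In Moderate replicate 5 miR-141 stood at 11.9 on 25 reads. Without that library the log2 fold change was -0.11 (adjusted p = 0.554 in limma) and the Moderate mean 8.17. In the 24 libraries under 12 M reads, miR-141 was at 8.15 ± 0.87 in High (n = 11) and 8.07 ± 1.34 in Moderate testes (n = 13), and the log2 fold change was 0.02. In the 6 deeper libraries it ran from 4.48 to 7.88 in 4 High testes and stood at 6.78 and 14.6 in 2 Moderate testes.

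miR-200c ran from 0.424 through a median of 0.829 to 1.31 in High testes, and from 0.115 through 0.663 to 1.62 in Moderate testes. Its lowest value, in Moderate replicate 8, was 1 read. Its log2 fold change, unlike those of the other members, was positive, at 0.16 (standard error 0.14, 95% confidence interval -0.13 to 0.44, adjusted p = 0.689 in limma without the filter). In Moderate replicate 5 its value of 1.43 rested on 3 reads. Without that library the log2 fold change was 0.21 (adjusted p = 0.513 in limma without the filter). Means were 0.826 ± 0.255 in High and 0.727 ± 0.402 in Moderate testes.

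The miR-200a cluster was lower in High testes by its means in the shallower libraries and higher in the deeper ones. In the 24 shallower libraries miR-200a stood at a log2 fold change of -0.43 (adjusted p = 0.213 in limma), with means of 3.54 ± 0.64 in 11 High and 5.22 ± 2.09 in 13 Moderate testes. In the 6 deeper libraries it averaged 4.13 ± 1.54 in 4 High and 3.49 ± 0.32 in 2 Moderate testes. miR-200b averaged 1.33 in High and 1.17 in Moderate testes there, and miR-429 1.51 in High and 1.26 in Moderate testes. miR-200c, in turn, averaged 0.884 in High and 0.664 in Moderate testes in the shallower libraries, and 0.666 in High and 1.14 in Moderate testes in the deeper ones. With log10 depth as a covariate, miR-200a stayed at -0.33 (adjusted p = 0.201 in limma). The difference between the ranges of depth was not tested.

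The scaling moved all of these values together. With library totals alone the median log2 fold change of all tested miRNAs rose by 0.18, to 0.21. The deposited values of Moderate replicate 5 summed to 4.22e+06, against 815635 to 1.11e+06 in the other libraries, so its scaling stood apart. How much of the rise rested on that library was not tested. Relative to the median of all miRNAs, miR-200a stood at -0.36 under either scaling, miR-429 at -0.33 with totals and -0.29 as deposited, and miR-141 at -0.16 and -0.17. With the diet given in the titles, the 5 log2 fold changes lay between -0.12 and -0.01 and none had an adjusted p under 0.976. In the 12 libraries in which both labels give 1 diet (6 per diet), miR-200a stood at -0.51 (adjusted p = 0.439 in limma).

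**Figure D4:**
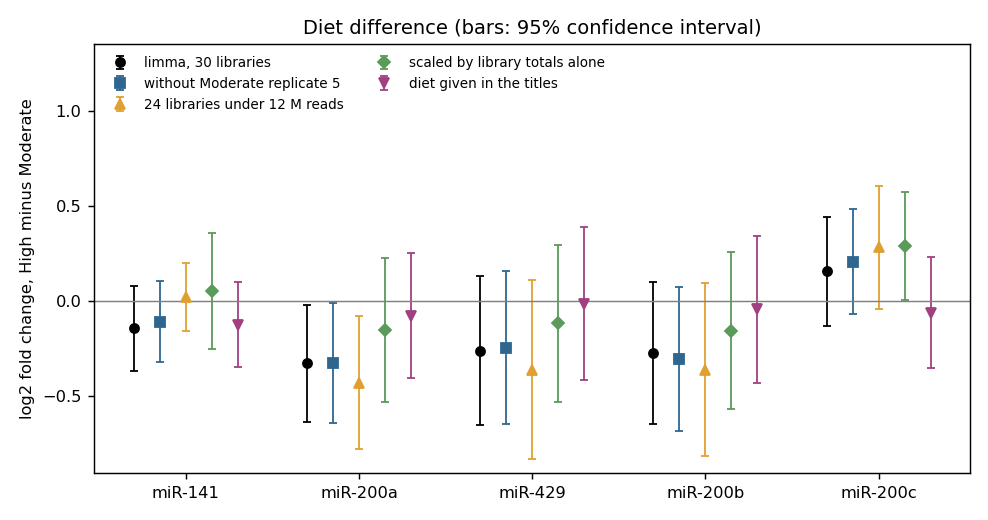
Log2 fold change, High minus Moderate, of the 5 family members with 95% confidence intervals under 5 settings. miR-200a, miR-429 and miR-200b stay below 0 in each, miR-141 lies above 0 with library totals and in the 24 libraries under 12 M reads, and miR-200c lies above 0 except with the diet of the titles.

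Within a diet, 4 of the 5 members had a smaller SD in High than in Moderate testes, and for miR-141 the SDs were alike. The SD of log2(value + 0.5) was 0.29 in High and 0.52 in Moderate libraries for miR-200a, 0.37 and 0.67 for miR-429, and 0.39 and 0.62 for miR-200b. For miR-200c it was 0.28 and 0.47, and for miR-141 0.29 in both. Of all tested miRNAs 86.0% had the larger SD in Moderate libraries, and 68.0% when Moderate replicate 5 was left out, so a larger spread in Moderate libraries was common. Without that library the Moderate SD was 0.54 for miR-200a, 0.69 for miR-429, 0.63 for miR-200b, 0.44 for miR-200c and 0.27 for miR-141. The difference in spread between diets was not tested.

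Other miRNAs were compared with the family through lists. Of 11 entries linked to epithelia outside the miR-200 family, 7 were tested and none passed, against 4.91% of all 387 tested miRNAs. Lists this small cannot be told apart from that share. The median log2 fold change of the 7 was -0.01 against 0.03 for all tested miRNAs. miR-205, which marks stratified and glandular epithelia, was near 0, with a mean of 0.142 and a value above 0 in 21 of 30 libraries. miR-192, known from gut and kidney epithelium, averaged 1930, miR-31 averaged 805, miR-182 averaged 86.0 and miR-375 averaged 52.1. The summed level of this list ran from 2619 to 3487 in High and from 2540 to 3081 in Moderate libraries. Of 11 tested markers of endothelium, red blood cells, leukocytes and gonadal somatic cells none passed either, with the same limit. Their median log2 fold changes were 0.05, 0.25, -0.04 and 0.04 in that order of cell types. miR-202 and miR-140, the gonadal somatic markers, averaged 2325 and 1705, as a check of the tissue label. In bulk tissue, fewer cells of a type and less RNA per cell cannot be told apart.

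Of the 6 mesenchymal miRNAs tested, none passed (4.91% of all 387 did), with a median log2 fold change of -0.10. Their leading member miR-143, abundant in smooth muscle, stood at 110581 ± 15485 in High and 121549 ± 29024 in Moderate testes. In the list of miR-34b, miR-34c and the miR-449 family, which mark meiotic male germ cells and multiciliated epithelium, 3 of 6 entries were tested. Of these, 2 passed as higher in High testes, against 9 of all 387 tested miRNAs (2.33%). Those 9 include these 2, and the list was chosen with earlier results of these data known. The shares are therefore no test of the list. miR-34c was at 113 ± 42.1 in High and 64.6 ± 37.0 in Moderate testes (log2 fold change 0.96, adjusted p = 0.0260 in limma). Its lowest value, 9.51, was that of Moderate replicate 5. Without that library the log2 fold change was 0.79 (adjusted p = 0.0107 in limma). miR-34b was at 7.65 ± 2.74 in High and 4.74 ± 2.66 in Moderate testes (log2 fold change 0.73, adjusted p = 0.0313 in limma). miR-34c lost its call in limma without High replicate 5 (adjusted p = 0.0520), and miR-34b lost it without that library or without any of High replicates 4 and 10 and Moderate replicates 6, 8 and 13 (adjusted p up to 0.0586). Neither passed without the filter, with library totals alone, in the libraries under 12 M reads, with the diet of the titles or in the 12 libraries with 1 diet in both labels. miR-34b did not pass in edgeR either (adjusted p = 0.0547). miR-449a, of the same seed, stood at 11.7 ± 3.30 and 11.9 ± 4.94 (log2 fold change 0.02, adjusted p = 0.949 in limma).

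The miR-200a cluster ran opposite to miR-34b and miR-34c across calves. Over 30 libraries miR-200a and miR-34b had a Spearman rho of -0.68 (permutation p = 6e-05; adjusted p = 0.0048 over the 80 relations between the 5 members and the 16 tested miRNAs of these 3 lists) and a Pearson r of -0.63 (permutation p = 0.00015; adjusted p = 0.0060). miR-429 and miR-34b had a rho of -0.64 (adjusted permutation p = 0.00747) and an r of -0.53 (adjusted permutation p = 0.0538). miR-200a and miR-34c had a rho of -0.62 (adjusted permutation p = 0.00747) and an r of -0.49 (adjusted permutation p = 0.0819). miR-429 and miR-34c had a rho of -0.59 (adjusted permutation p = 0.0182) and an r of -0.43 (adjusted permutation p = 0.149). miR-200b went the same way without passing, with a rho of -0.43 for miR-34b and -0.45 for miR-34c (adjusted permutation p = 0.182 and 0.165).

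miR-34b and miR-34c were also higher in High testes, and how much of these relations lay between the diets was not tested. Within diets rho stayed negative and was weaker. For miR-200a and miR-34b, rho was -0.51 in the 15 High and -0.57 in the 15 Moderate libraries, and for miR-429 and miR-34b it was -0.43 and -0.62. Without Moderate replicate 5 the rho of miR-200a and miR-34b was -0.67, and without Moderate replicates 6 and 7 its r was -0.59. The relations differed between the ranges of depth. In the 24 libraries under 12 M reads rho was -0.75 for miR-200a and -0.80 for miR-429 with miR-34b, while in the 6 deeper ones it was -0.26 and 0.20. For miR-200b and miR-34b it was -0.58 in the 24 and 0.20 in the 6. Whether the number of germ cells differed between these testes was not tested.

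A further relation concerned miR-141. Its Pearson r with miR-375, an miRNA known from pancreatic islets and other endocrine and secretory epithelia, was 0.73 (permutation p = 1e-05; adjusted p = 0.0008 over the same 80 relations), while the Spearman rho was 0.37 (adjusted permutation p = 0.282). The relation rested on a few libraries. In the 24 libraries under 12 M reads r was 0.36 and rho 0.02, and in the 6 deeper ones r was 0.98. Both miRNAs were lowest in High replicate 4 and highest in Moderate replicate 9, both deep libraries. Without these, the farthest from the median of miR-141, r was 0.56. miR-141 and miR-34c had an r of -0.60 (adjusted permutation p = 0.0253) and a rho of -0.41 (adjusted permutation p = 0.215), and without the same pair of libraries r was -0.51. With Moderate replicate 5 alone left out, r was -0.51 and rho -0.35. miR-200c passed with no miRNA of these lists by either measure.

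**Figure D5:**
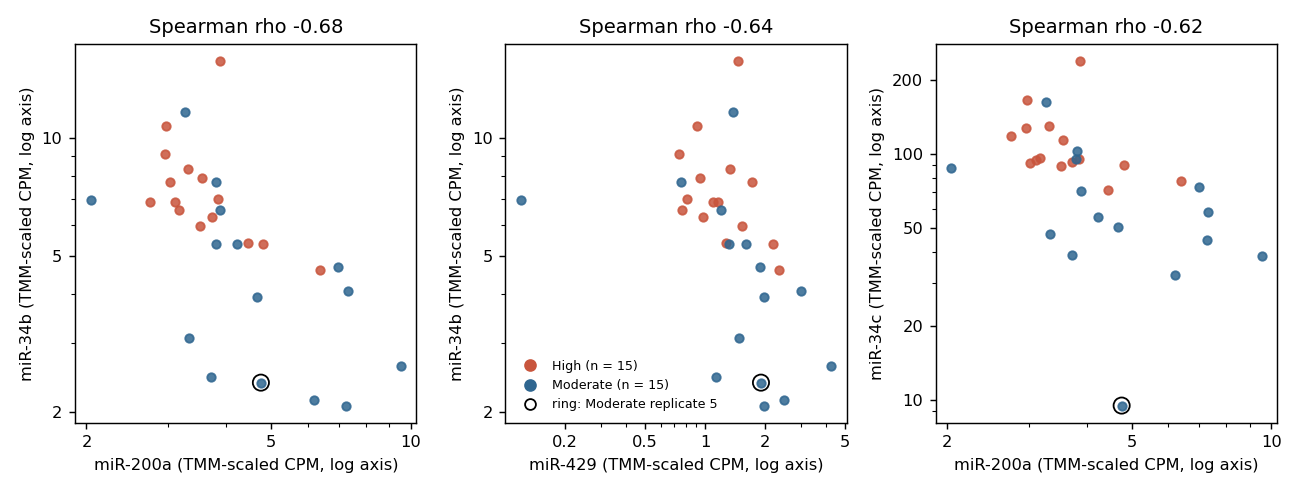
miR-34b against miR-200a and miR-429, and miR-34c against miR-200a (TMM-scaled CPM, both axes log), 1 point per library, coloured by diet, with a ring around Moderate replicate 5. The points fall from upper left to lower right in each panel (rho -0.68, -0.64 and -0.62).

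By likeness of pattern, the 383 tested miRNAs outside the family were ranked by their Spearman rho with the mean log2 level of miR-200a, miR-200b and miR-429 over the 30 libraries. The highest were miR-190b (0.67), miR-433 (0.60), miR-490 (0.55), miR-2460 (0.53), miR-92b (0.53) and miR-493 (0.52). miR-433 and miR-493 belong to the imprinted DLK1-DIO3 region, and how many of the 383 belong to it was not counted. Within diets, miR-190b had a rho of 0.57 in High and 0.80 in Moderate libraries. For miR-490, miR-2460, miR-92b and miR-493 rho lay between 0.47 and 0.79 in either diet. For miR-433 it was 0.79 in High and 0.25 in Moderate libraries. At the other end, miR-34b (-0.66) and miR-34c (-0.62) were the lowest of the 383, outside the rule that named the first 6. The median over all 383 was -0.01. These ranks describe the libraries and carry no test.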

How the data were processed

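Small RNA of 30 testes was sequenced. Per the labels' protocols, RNA came from the Qiagen RNeasy Plus Universal kit and was prepared with Illumina's TruSeq small RNA chemistry. The submitters' processing notes list edgeR 3.5, R 3.4, cutadapt 2.6 and FastQC 0.11.8. Aligner, miRNA reference and genome were not given in the sources used here. What the authors deposited is a normalized signal, 1 column per library. Worked out from the values, it is CPM on a scaled library size, and the scaling was taken to be TMM. In units of 1 read, 95.3% of 18379 nonzero values were whole, with a tolerance of 0.02 read. All 5 family members came out whole. miR-200b and miR-200c are near-identical in sequence, and how the authors assigned reads between them is unknown here.

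Replicates are numbered by accession, a name that pairs nothing. P-values measure the spread between calves. The main test was limma 3.58.1 (trended prior) on log2(value + 0.5) by diet, on miRNAs that reached a value of 1 in 15 or more libraries. limma was chosen because the values are normalized. P-values are two-sided with Benjamini-Hochberg adjustment and a threshold of 0.05. Alternatives were edgeR 4.0.16 and DESeq2 1.42.0 on the recovered reads (fractions rounded; 30 miRNAs called by edgeR), other pseudocounts, scalings, filters and sets of libraries. The fits were checked on simulated data. Correlations used SciPy 1.17.1 and NumPy 2.4.6 with 100000 permutations of libraries. The members and lists were chosen with earlier results of these data known. Named were the members, the 6 non-members most like the miR-200a cluster, and of each list those that passed and up to 4 of the highest mean. miR-205, miR-449a, miR-34b and miR-34c as the least like, and the markers given by median only, fall outside that rule or were chosen after their values were seen.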

Additional observations from a re-analysis of the deposited data

How the results depend on the processing

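None of the 5 family members passed in limma, edgeR or DESeq2 under any alternative run, and the lowest adjusted p was 0.0684 for miR-200a without Moderate replicate 3. The direction turned for miR-141 with library totals alone (0.053) and in the libraries under 12 M reads (0.021), and for miR-200c with the diet of the titles (-0.061). With 1 library left out at a time, log2 fold changes ran from -0.40 to -0.26 for miR-200a, -0.35 to -0.21 for miR-200b, -0.38 to -0.17 for miR-429, 0.09 to 0.22 for miR-200c and -0.17 to -0.09 for miR-141. miRNAs past the threshold over the whole table, 19 in limma, numbered 30 in edgeR, 47 in DESeq2, 3 in the libraries under 12 M reads, 0 without the filter, 0 with library totals alone, 0 with the diet of the titles and 0 in the 12 libraries with 1 diet in both labels, and 0 to 45 with a library left out (0 without High replicate 5, 45 without Moderate replicate 5). At an unadjusted p under 0.05, those with 0 had 104 of 838, 61 of 389, 11 of 387 and 43 of 391 miRNAs in limma in that order.

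Among correlations, that of miR-200c and miR-141 passed with library totals alone (rho 0.46), and rho turned sign for miR-200b and miR-141 in the libraries under 12 M reads (0.050) and for miR-429 and miR-141 when scaled by totals (-0.051) or with Moderate replicate 5 left out (-0.027). The SD of log2 values moved by over 1.5 times for miR-200c with a pseudocount of 0.1 (0.61) and for miR-141 in the libraries under 12 M reads (0.18). The cause of these changes was not tested. With 2 to 31 reads per library for miR-200b, 1 to 42 for miR-429 and 1 to 27 for miR-200c, depth limits what could be detected. No paired analysis was run, because each calf gave 1 library under 1 diet and the replicate numbers pair nothing.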
